A study of Arabidopsis thaliana with 24 samples.

Results

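Transcript levels of *sdg8-5* and WT shoots were compared after 2 h in darkness with 1% sucrose, the treatment in which carbon was returned without light. The comparison rests on 6 arrays, 3 of each genotype, out of 24 arrays in the series. They were chosen by genotype and treatment label alone. *sdg8-5* is a fast-neutron deletion line, once named cli186, that lacks SDG8 together with its promoter and part of the neighbouring gene AT1G77310, and all mutant plants descend from this 1 line. WT is the unmutagenized parent line. Both genotypes carry the pASN1-HPT2 transgene of the screen in which the mutant was found. The plants were 3 weeks old, were grown in liquid culture in long days with sucrose and nitrate, and had then spent 24 h without sucrose in foil-wrapped trays. The other arrays hold both genotypes without sucrose in darkness, without sucrose in light of 70 µE, and with sucrose in light. Each group has 3 biological replicates, and the shoots of each were measured whole, so fewer cells of a type and less RNA per cell cannot be told apart.

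SDG8 is a SET domain methyltransferase that adds methyl groups to lysine 36 of histone H3. H3K36me3 is laid down over the bodies of transcribed genes and is associated with active expression. In *Arabidopsis*, loss of SDG8 is known for early flowering, increased branching, altered pigments and weakened pathogen defense. Sucrose given to carbon-starved shoots is known to lower transcripts of starvation and catabolic genes and to raise those of biosynthesis and growth.

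Of 12431 genes measured, 558 (4.49%) were called, 398 (3.2%) lower and 160 (1.29%) higher in *sdg8-5*, at an FDR under 0.05 (limma, Benjamini-Hochberg adjustment over all 21552 probe sets kept). The falls were also somewhat larger in the median. The median log2 difference was -1.06 among the 398 and 0.86 among the 160. On the log2 scale, 50 of the 398 falls and 15 of the 160 rises exceeded 2. The *sdg8-5* mean was under 40 in 40 of the falls and the WT mean in 15 of the rises, so folds of such genes depend on values near the floor. In 395 of the 398 and in all 160, the 3 values of *sdg8-5* did not overlap the 3 values of WT, against 12.1% of all genes lying below without overlap and 9.08% lying above. The counts depended on single arrays. The falls numbered 242 without WT replicate 2 and 229 without *sdg8-5* replicate 2, and the rises numbered 96, 86, 53 and 77 without WT replicate 1, WT replicate 2, *sdg8-5* replicate 2 and *sdg8-5* replicate 3. Centring each array on its median gave 328 falls and 215 rises, so that 60.4% rather than 71.3% of calls were falls.

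**Figure D1:**
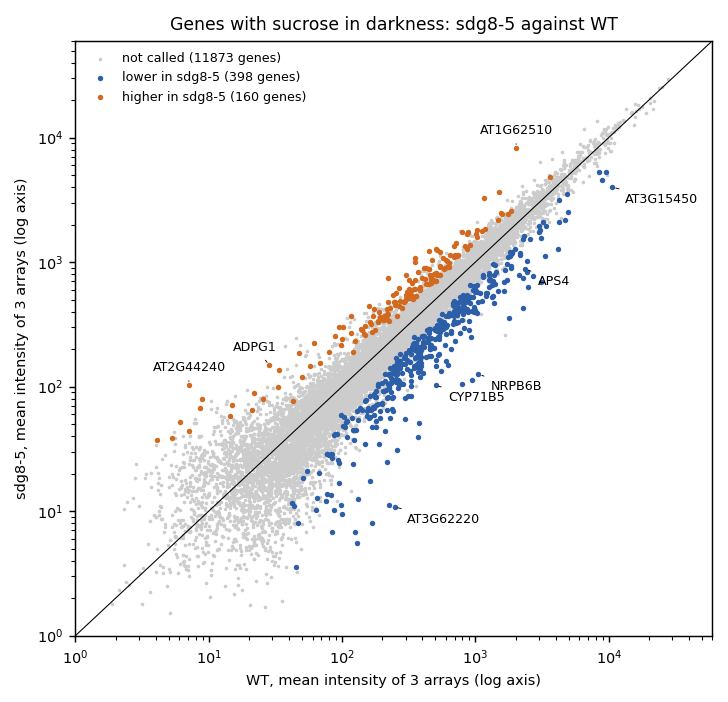
Mean intensity of each of 12431 genes in the 3 WT arrays (horizontal, log axis) and the 3 *sdg8-5* arrays (vertical, log axis) with sucrose in darkness. Blue points are the 398 genes lower and orange points the 160 genes higher in *sdg8-5*, and the line marks equal levels. The falls reach farther from the line than the rises, with 50 of the 398 against 15 of the 160 past 2 on the log2 scale.

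Medians of the 6 arrays lay between 201.1 and 221.2 intensity units, on a scale where the trimmed mean of every array is 500. Correlations of log2 values were 0.914 to 0.937 within WT, 0.925 to 0.937 within *sdg8-5* and 0.899 to 0.938 between them. The summed intensity of 11 measured green-tissue genes of the Calvin cycle and photosystems was 59900 to 60230 in WT and 51310 to 60380 in *sdg8-5*. Both flower markers with a probe set in the annotation used were near the floor, at 5.4 to 60.0. The 4 other listed flower markers had none there. The root marker pair summed to 4154 to 8683 in WT and 3443 to 7709 in *sdg8-5*, nearly all of it PYK10, a transcript abundant in roots, which was present in both genotypes. The control probe sets for 25S ribosomal RNA read 1275, 2801 and 2556 in WT and 9258, 6030 and 6563 in *sdg8-5*, a 3.42-fold difference (exact permutation test, two-sided, p = 0.1, the smallest that 3 against 3 arrays allow). In each of the other treatments, too, every *sdg8-5* array read above every WT array, so this signal is aligned with genotype. With it in the model as a covariate, 194 falls and 78 rises were called, among them 180 of the 398 and 57 of the 160. The bioC labelling control separated the arrays into a lower group (WT replicates 1 and 2, *sdg8-5* replicate 1) and a higher group (WT replicate 3, *sdg8-5* replicates 2 and 3). With these groups as a block, 414 falls and 172 rises were called, among them 376 of the 398 and 150 of the 160. In the annotation used, SDG8 itself was not among the genes with a listed probe set, so the genotype was not checked from its transcript.

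Among the named genes, the deepest falls took transcripts from a clear signal in WT to the lowest intensities of the array. AT3G62220 read 304, 233 and 205 in the WT replicates and 4.53, 10.1 and 17.8 in *sdg8-5*, a log2 difference of -4.71 (SE 0.51, adjusted p = 3.98e-05). AT1G67620 read 227, 239 and 204 in WT against 11.4, 13.2 and 8.77, a difference of -4.35 (SE 0.29, adjusted p = 3.32e-07). AT4G11900 read 188, 143 and 168 against 9.98, 8.18 and 5.96, a difference of -4.40 (SE 0.49, adjusted p = 4.77e-05). In each of these genes every WT array was more than 10-fold above every *sdg8-5* array. The folds of such genes depend on values near the floor, since the *sdg8-5* mean was under 40, the minimum used to keep a probe set, in 40 of the 398 genes. The same held for AT5G60030, AT3G46490, AT2G04230, AT4G08110, AT4G13160, AT4G19865 and AT3G19470, whose WT means were 121 to 257 and whose *sdg8-5* means were 5.56 to 31.2. The calls of AT5G60030, AT4G08110 and AT3G19470 were lost without *sdg8-5* replicate 3. Those of AT5G60030 and AT3G19470 were also lost without WT replicate 1 or 3, and that of AT3G19470 without WT replicate 2 or *sdg8-5* replicate 1. With the 25S signal as a covariate, the calls of AT5G60030 and AT3G19470 were lost as well. AT5G56380, an F-box and leucine-rich repeat protein gene, fell from 322, 450 and 333 to 58.6, 18.8 and 41.5 (log2 difference -3.35, SE 0.59, adjusted p = 0.0024).

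The most strongly lowered gene with a well-described product and a bright WT signal was NRPB6B, 1 of the paired genes for the sixth subunit shared by nuclear RNA polymerases. NRPB6B read 816, 1049 and 1298 in WT and 128, 159 and 90.9 in *sdg8-5*, a log2 difference of -3.08 (SE 0.29, adjusted p = 1.34e-05). Its paralog NRPB6A read 1085, 911 and 1210 in WT and 858, 1176 and 1044 in *sdg8-5* (log2 difference -0.06, SE 0.21, adjusted p = 0.923). The *sdg8-5* values thus lay far below WT in the 1 gene and inside the WT range or next to it in the other. Of 12 RNA polymerase subunit genes measured, 2 (16.7%, beside 3.2% over all genes) fell and none rose, with a median log2 difference of 0.01 against -0.03 over all genes. The other was NRPE7, a subunit gene of the plant-specific RNA polymerase V of RNA-directed DNA methylation, at 170 ± 25.5 in WT and 68.8 ± 33.2 in *sdg8-5* (SD, n = 3; adjusted p = 0.0113). The NRPE7 call was lost without WT replicate 2. ATIM, a gene of the timeless family of replication and clock proteins, fell from 442, 319 and 357 to 116, 112 and 168 (log2 difference -1.51, SE 0.24, adjusted p = 0.00118).

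**Figure D2:**
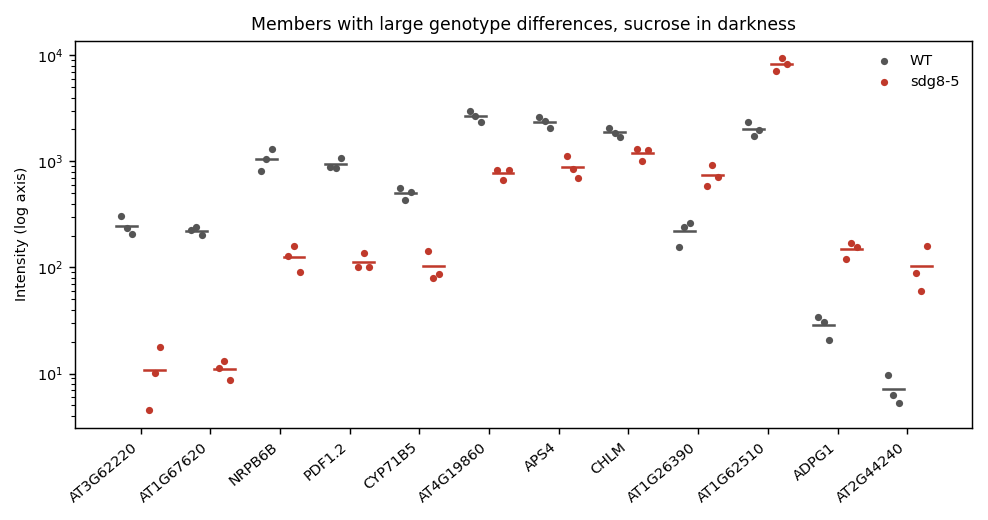
Intensity (log axis) of 12 genes in each of the 6 arrays with sucrose in darkness, WT in grey and *sdg8-5* in red; points are arrays and bars are means of 3. The 8 genes on the left lay lower and the 4 on the right higher in every *sdg8-5* array than in every WT array, with NRPB6B at 816 to 1298 in WT and 90.9 to 159 in *sdg8-5*.

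Single genes of defense were among the falls. PDF1.2, the antifungal defensin used as a marker of jasmonate and ethylene signaling, read 883, 868 and 1087 in WT and 101, 137 and 101 in *sdg8-5* (log2 difference -3.08, SE 0.64, adjusted p = 0.00908). The near-identical copy PDF1.2b read 1474, 1710 and 1785 in WT and 273, 325 and 187 in *sdg8-5*, but its difference of -2.69 did not pass the test (adjusted p = 0.066), and hybridization between the copies cannot be told apart. Of 14 defensin genes, PDF1.2 alone was called (7.14%, beside 3.2% lower over all genes). AT3G48080, which lies in the immune signaling list, fell from 662 ± 171 to 271 ± 36.2 (SD, n = 3; adjusted p = 0.00377), whereas SAG101, BIK1 and EFR of that list were not called. The calls of PDF1.2 and AT3G48080 were lost with the 25S signal as a covariate. Of 19 immune genes listed, 4 were measured. Outside the rule for named genes, and chosen after their values were seen, the kinase gene PTI1-4 (770 to 268 in the means, adjusted p = 1.34e-05), the TIR-NBS-LRR gene CSA1 (725 to 443, adjusted p = 0.00243) and MYC4, a bHLH factor of jasmonate responses (358 to 207, adjusted p = 0.0227), were also lower.

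Several cytochrome P450 genes of the CYP71B subfamily were lower. The CYP71B genes encode P450 enzymes, several of which act in defense metabolism in *Arabidopsis*. Of 23 P450 genes measured, 5 (21.7%) were lower and none higher, beside 3.2% lower over all genes. The 5 lie among 18 CYP71B genes, whose median log2 difference was -0.66. None of the 5 other P450 genes measured was called, too few for a comparison with CYP71B. CYP71B5 read 557, 436 and 516 in WT and 143, 78.9 and 86.5 in *sdg8-5* (log2 difference -2.34, SE 0.24, adjusted p = 3.66e-05). CYP71B22 read 520, 766 and 525 against 76.2, 149 and 260 (-2.05, SE 0.41, adjusted p = 0.00681). CYP71B34 read 602, 514 and 469 against 189, 239 and 107 (-1.64, SE 0.28, adjusted p = 0.00225). The groups did not overlap in any of these genes. CYP71B36 and CYP71B35 were called as well, at lower levels (means of 42.3 and 76.5 in WT). The CYP71B36 call was lost with the 25S signal as a covariate. CYP71B22, CYP71B34, CYP71B35 and CYP71B36 are near neighbours on chromosome 3, and cross-hybridization among such close relatives was not tested.

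Sulfur genes were lower in *sdg8-5* at the first step of sulfate use. ATP sulfurylase activates sulfate before its reduction. Its genes APS4 and APS3 were both lower, APS4 at 2632, 2391 and 2069 in WT and 1114, 852 and 690 in *sdg8-5* (log2 difference -1.44, SE 0.21, adjusted p = 0.000487). APS3 read 403, 536 and 428 against 192, 205 and 203 (-1.18, SE 0.15, adjusted p = 0.000218). SIR, the sulfite reductase gene, read 2145, 2909 and 2143 against 2210, 2614 and 2069 (adjusted p = 0.927), so its groups overlapped entirely. Of 17 sulfate assimilation genes listed, 3 were measured. BCAT4, an aminotransferase at the entry to methionine-derived glucosinolates, fell from 1069, 1993 and 1397 to 746, 441 and 568 (log2 difference -1.33, SE 0.28, adjusted p = 0.00832). The BCAT4 call was lost without WT replicate 2 or without *sdg8-5* replicate 2, and UGT74B1, AT2G31790 and AOP3 of the same pathway were not called.

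Of 7 chlorophyll synthesis genes measured, 2 (28.6%, beside 3.2% over all genes) were lower and none higher, with a median log2 difference of -0.31. Of 8 photosystem and light-harvesting genes, 1 was lower and 1 higher (12.5% each, beside 3.2% lower and 1.29% higher over all genes). PORB, the protochlorophyllide reductase that acts in the light, read 3376, 3555 and 3308 in WT and 2237, 1608 and 1973 in *sdg8-5* (log2 difference -0.83, SE 0.21, adjusted p = 0.0285). CHLM, the magnesium protoporphyrin methyltransferase, read 2074, 1852 and 1701 against 1318, 1013 and 1282 (-0.64, SE 0.13, adjusted p = 0.00925). The other 5 chlorophyll genes were not called. LHCB4.2, an antenna protein of photosystem II, fell from 7773, 8581 and 9247 to 5828, 4529 and 5410 (-0.70, SE 0.19, adjusted p = 0.0371), while its paralog LHCB4.1 read 10540, 12040 and 10520 against 13510, 9732 and 9802 (adjusted p = 0.975). PSB27, an assembly factor of photosystem II, rose from 3344, 3491 and 4083 to 5055, 4492 and 4979 (0.41, SE 0.11, adjusted p = 0.0365). The 69 plastid-encoded genes had a median log2 difference of 0, and none was called. PGRL1B of cyclic electron flow did not pass (619 ± 85.5 against 446 ± 18, SD, n = 3; adjusted p = 0.18), nor did the Calvin cycle genes RCA, PRK and SBPASE. CHLM and LHCB4.2 lost their calls without *sdg8-5* replicate 2. PORB, LHCB4.2 and PSB27 each lost theirs without any 1 of 5 of the 6 arrays, and all of these calls were lost with the 25S signal as a covariate.

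Other enzyme and cell wall families held 1 to 3 calls each. EXPA8, an expansin of cell wall loosening, read 705, 1064 and 1029 in WT and 256, 246 and 245 in *sdg8-5* (log2 difference -1.88, SE 0.26, adjusted p = 0.000358). It was the 1 call among 18 expansins (5.56%, beside 3.2% lower over all genes). Of 27 serine carboxypeptidase-like genes, scpl20, scpl50 and SCPL34 were lower by 1.07, 1.03 and 0.76 on the log2 scale (11.1% of the family, beside 3.2% over all genes). The call of SCPL34 was lost without WT replicate 2 or *sdg8-5* replicate 2 or 3, that of scpl50 was lost whichever array was left out, and both were lost with the 25S signal as a covariate. Of 49 UDP-glycosyltransferase genes, UGT88A1 was lower (2290 to 1533 in the means) and UGT84A3 higher (202 to 344), close to the share over all genes. The UGT84A3 call was lost whichever array was left out. That of UGT88A1 was lost without WT replicate 1 or *sdg8-5* replicate 2, and with the 25S signal as a covariate. GSTU18 (323 to 189) was the 1 call among 13 glutathione S-transferases (7.69%, beside 3.2% lower over all genes). That call was lost without WT replicate 2 or *sdg8-5* replicate 2 or 3. None of 43 AP2/ERF factors was called, and neither was any of 7 WRKY factors.

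Gene sets from the study's own chromatin and expression work differed in their calls. Of 79 genes measured from its genotype by light list, 40 (50.6%) were lower and 3 (3.8%) higher, beside 3.2% and 1.29% over all genes. That list was chosen on these same arrays and is not independent evidence of direction. The members with the lowest p were AT4G19860, an alpha/beta-hydrolase gene (2684 ± 307 to 778 ± 96.8), AT4G13050, an acyl-ACP thioesterase (405 ± 16.5 to 128 ± 10.4), AT5G23405, an HMG-box protein (529 ± 42.7 to 182 ± 36.7), and AT3G50270, an acyltransferase (234 ± 14.3 to 90.7 ± 5.98; all SD, n = 3). Their adjusted p-values were 1.05e-06, 0.000202, 5.38e-05 and 0.000282. Of 7 measured energy metabolism genes listed as bound by SDG8 and hypomethylated without it, none was called and the median log2 difference was 0.03. Of 11 in the wider list of functional targets, which was also picked with expression on these arrays, 5 (45.5%, beside 3.2% over all genes) were lower: APS3, APS4, LHCB4.2, AT3G49160 and AT3G01850. Without *sdg8-5* replicate 3, or with the 25S signal as a covariate, the calls of LHCB4.2, AT3G49160 and AT3G01850 were lost. The call of AT3G49160 was also lost without WT replicate 1 or 3 or *sdg8-5* replicate 2, and that of AT3G01850 without WT replicate 2. Of 24 measured genes listed as gaining H3K36me3 after carbon and light in either genotype, 3 (12.5%, beside 3.2% over all genes) were lower and none higher, and the median over the list was 0.07. They were AT2G04039 (212 ± 1.41 to 44.1 ± 8.00), AT2G23840, an HNH endonuclease gene (66.6 ± 28.1 to 20.3 ± 21.6), and AT4G39970 (300 ± 48.2 to 186 ± 27.8; all SD, n = 3). AT2G23840 and AT4G39970 lost their calls without any 1 of 5 of the arrays, and with the 25S signal as a covariate.

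A small group of genes, most of them lower in *sdg8-5*, differed between the genotypes in another way with sucrose in darkness than in the other treatments. The genotype difference in this treatment was tested against the mean of the genotype differences in the other 3, which use none of the same arrays. At an FDR under 0.15, the threshold used for differences between treatments, 23 genes (0.185%) passed, 22 of them shifted down and 1 up, with 5 under 0.05 (805 genes had an unadjusted p under 0.05). Of the 23, 21 were also called lower in this treatment itself, beside 3.2% over all genes, and 1, CSLA03, was called in any of the others. The contrast that chose the 23 contains the differences in all these treatments. Both counts thus follow in part from the selection and are not independent evidence. The set depended on single arrays: 5 of the 23 still passed without *sdg8-5* replicate 2, 6 without WT replicate 1, 8 without *sdg8-5* replicate 3, 9 without WT replicate 2 and 13 without WT replicate 3. Without *sdg8-5* replicate 1, all 23 passed among 78 genes. With the bioC groups as a block, all 23 passed among 28 genes.

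Of the 5 genes under 0.05, AT2G20670, AT3G15450 and AKINBETA1 are in the list of genes raised by carbon starvation or darkness, and AT1G73480 and AT5G25470 are not. AT2G20670 read 2626, 2294 and 1939 in WT and 864, 222 and 199 in *sdg8-5* (log2 difference -2.75, SE 0.39, adjusted p = 0.000395). Without sucrose in darkness its means were 7165 in WT and 7806 in *sdg8-5*, and in light with sucrose they were 231 and 222. The *sdg8-5* plants in darkness thus reached, in 2 of 3 arrays, the level that both genotypes had with sucrose in light. Its difference from the other treatments was -2.81 (SE 0.45, adjusted p = 0.0287).

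AT3G15450 read 10880, 10890 and 10160 in WT and 5632, 2699 and 3677 in *sdg8-5* (log2 difference -1.48, SE 0.23, adjusted p = 0.00105). Without sucrose in darkness it read 17670 and 18400 in the means, a difference of 0.05. AKINBETA1, a beta subunit of the energy-sensing kinase SnRK1, read 1588, 1252 and 1410 against 1209, 628 and 675 (-0.82, SE 0.21, adjusted p = 0.0282). In the 3 other treatments AKINBETA1 was 0.24 to 0.69 higher in *sdg8-5* on the log2 scale, none of them called. The difference from those treatments was -1.34 (adjusted p = 0.0482). CCL, a CCR-like gene, read 9552, 9313 and 8099 in WT and 6710, 3109 and 3880 in *sdg8-5* (-1.05, SE 0.22, adjusted p = 0.00999). In each of AT2G20670, AT3G15450, AKINBETA1 and CCL the highest *sdg8-5* array was replicate 1, as in 15 of the 23 genes, and that array still lay below every WT array. The call of AKINBETA1 was lost without WT replicate 1 or 3 or *sdg8-5* replicate 2 or 3, and that of CCL without *sdg8-5* replicate 2.

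AT1G73480 fell from 556, 468 and 538 to 313, 293 and 263 (-0.85, SE 0.15, adjusted p = 0.00199) and was 0.12 to 0.24 higher in the other treatments. AT1G20880, an RNA-binding protein gene, was even across replicates, at 341, 333 and 333 in WT against 209, 202 and 218 (-0.68, SE 0.13, adjusted p = 0.00376). AT5G47390, the MYB factor KUA1 or MYBH, read 596, 538 and 550 against 366, 237 and 338 (-0.86, SE 0.21, adjusted p = 0.0232). Its call was lost without any 1 WT array or without *sdg8-5* replicate 2. AT5G25470 differed from this pattern, since sucrose in darkness did not lower it in WT. It read 118, 89.3 and 90.5 in WT and 10.9, 11.6 and 6.10 in *sdg8-5*, and its *sdg8-5* means in the other treatments were 43.9 to 54.4. CSLA03, a cellulose synthase-like gene that sucrose in darkness did not lower in WT either, read 302, 336 and 353 in WT and 92.2, 66.6 and 93.9 in *sdg8-5* (-1.99, SE 0.22, adjusted p = 4.91e-05). CSLA03 was lower in *sdg8-5* in the other treatments too, to a smaller extent. Its log2 difference was -0.92 without sucrose in darkness, where it was called (adjusted p = 0.0228). It was -0.36 without sucrose in light and -0.81 with sucrose in light, neither of them called. HAT2, a homeodomain leucine zipper factor of auxin responses, was the 1 gene shifted up: it read 327, 316 and 405 in WT and 573, 565 and 685 in *sdg8-5* (0.80, SE 0.16, adjusted p = 0.00542). Without sucrose in darkness HAT2 was at 329 in WT and 250 in *sdg8-5*. With the 25S signal as a covariate, the calls of HAT2, AKINBETA1, AT1G20880 and AT5G47390 with sucrose in darkness were lost, while all 23 genes still passed the test of the difference from the other treatments.

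**Figure D3:**
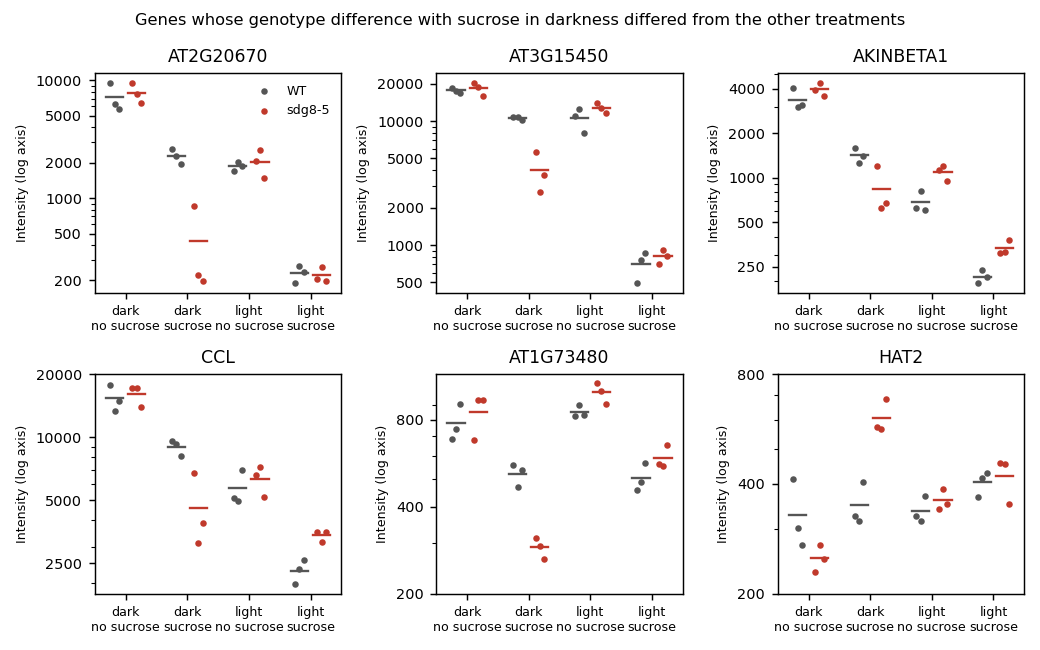
Intensity (log axis) of 6 genes in all 24 arrays, by treatment, with WT in grey and *sdg8-5* in red; points are arrays and bars are means of 3. With sucrose in darkness the *sdg8-5* arrays of AT2G20670, AT3G15450, AKINBETA1, CCL and AT1G73480 lie below the WT arrays and those of HAT2 above, while in both light treatments the *sdg8-5* mean of AKINBETA1 lies above that of WT.

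Single pairs of treatments gave fewer such genes. Against darkness without sucrose, the genotype difference changed in 3 genes (0.0241%; 770 at an unadjusted p under 0.05; none at an FDR under 0.05, the lowest being 0.149): AT2G20670, HAT2 and AT1G02813. AT1G02813 was the reverse case, at 35.9 ± 9.05 in WT and 35.3 ± 3.88 in *sdg8-5* with sucrose in darkness (SD, n = 3) but 4.09 lower on the log2 scale in *sdg8-5* without sucrose. Against light with sucrose, it changed in 4 genes (0.0322%; 733 at an unadjusted p under 0.05; none at an FDR under 0.05, the lowest being 0.145): AT1G73480, AT1G20880, AT3G15450 and CCL. These counts ranged from 0 to 25 and from 0 to 29 when single arrays or replicate sets were left out.

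Genes that respond to sucrose in light were then followed in darkness. In light, 321 genes were lowered by sucrose over both genotypes (FDR under 0.05), a contrast of light arrays whose residual spread is shared with all 24 arrays. With sucrose in darkness, 66 of them (20.6%) were lower and 5 (1.56%) higher in *sdg8-5*, beside 3.2% and 1.29% over all genes. Their median log2 difference was -0.42, while over all genes it was -0.03. Their medians in the other 3 treatments were 0.00 without sucrose in darkness, 0.05 without sucrose in light and 0.00 with sucrose in light. Among the 101 of them that sucrose in light lowered at least 2-fold, 26 (25.7%) were lower and none higher, with a median of -0.64. Conversely, of 236 genes that sucrose raised in light, 19 (8.05%) were higher in *sdg8-5* with sucrose in darkness, with a median of 0.24. The 9 lower ones (3.81%) were close to the 3.2% over all genes. Among the 45 of the 236 that sucrose in light raised at least 2-fold, 3 (6.67%) were higher and 1 (2.22%) lower, with a median of 0.06. The shift of the raised genes was thus not larger in that subset.

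Array by array, the 321 genes stood on a log2 scale at -0.05, -0.02 and -0.03 in WT and -0.28, -0.59 and -0.52 in *sdg8-5* with sucrose in darkness, as medians relative to each gene's mean over 24 arrays. Replicates 2 and 3 of *sdg8-5* thus lay within the range of both genotypes with sucrose in light (-0.65 to -0.50), and replicate 1 lay between that range and WT. The 236 genes stood at 0.17, 0.02 and 0.10 in WT and 0.16, 0.39 and 0.39 in *sdg8-5*, so *sdg8-5* replicate 1 overlapped WT there. From darkness without sucrose to darkness with sucrose, the 321 genes fell by a median of 0.62 in WT and 0.95 in *sdg8-5*, and the 236 genes rose by 0.61 and 0.82. Leaving out any 1 array gave medians of -0.50 to -0.34 for the 321 genes and 0.20 to 0.31 for the 236. Within the lower and the higher bioC group, the medians were -0.23 and -0.50 for the former and 0.07 and 0.29 for the latter, where the lower group holds only *sdg8-5* replicate 1. The number of the 321 called lower was 31 without *sdg8-5* replicate 2, 39 without *sdg8-5* replicate 3 and 41 with the 25S signal as a covariate. The number of the 236 called higher was 6, 7, 2 and 6 without WT replicate 2, WT replicate 3, *sdg8-5* replicate 2 and *sdg8-5* replicate 3, and 32 without *sdg8-5* replicate 1.

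**Figure D4:**
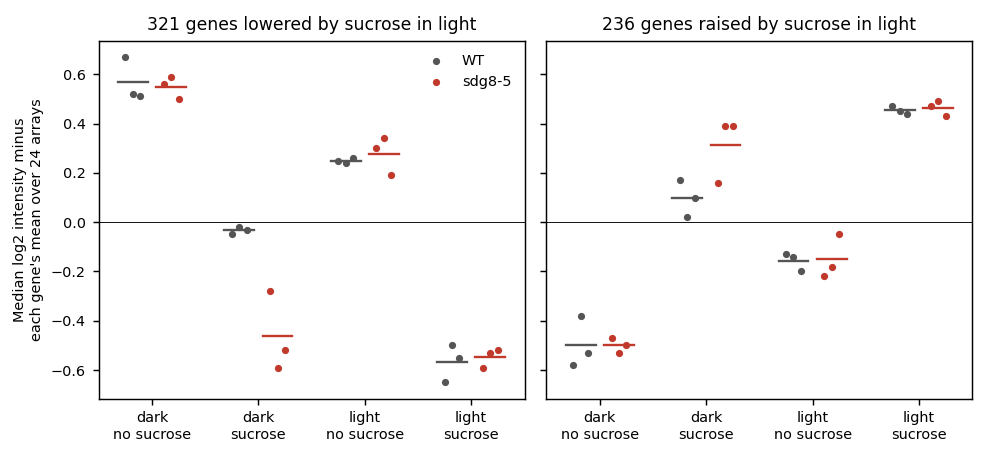
Median log2 intensity, relative to each gene's mean over all 24 arrays, of the 321 genes lowered (left) and the 236 genes raised (right) by sucrose in light, for each array by treatment; WT in grey, *sdg8-5* in red, bars are means of 3 arrays. On the left the genotypes separate with sucrose in darkness (-0.05 to -0.02 in WT and -0.59 to -0.28 in *sdg8-5*) and overlap in the other treatments. On the right they overlap in every treatment, with 0.02 to 0.17 in WT and 0.16 to 0.39 in *sdg8-5* with sucrose in darkness.

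Not all starvation genes followed. Of 9 measured genes in the dark and carbon starvation list, AT2G20670, AT3G15450 and AKINBETA1 were lower (33.3%, beside 3.2% over all genes). None was higher, and the median was -0.48. IVD, a gene of leucine catabolism, read 1553, 1256 and 1454 in WT and 1564, 1128 and 592 in *sdg8-5* (adjusted p = 0.371), with overlapping groups and *sdg8-5* replicate 3 lowest. MCCA and MCCB of the same pathway were not called either and were likewise lowest in *sdg8-5* replicate 3, at 736 and 693. ETFQO, which passes electrons from this catabolism to respiration, was at 588 in the mean of WT and 765 in *sdg8-5* (adjusted p = 0.355).

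Rises were fewer and mostly smaller. AT2G44240 read 9.74, 6.23 and 5.27 in WT and 89.4, 60.4 and 159 in *sdg8-5* (log2 difference 3.80, SE 0.53, adjusted p = 0.000379), from background to a weak signal. AT1G62510 was the brightest, at 2332, 1744 and 1978 against 7124, 9376 and 8274 (2.03, SE 0.33, adjusted p = 0.00115). AT1G26390 read 155, 242 and 264 against 581, 935 and 709 (1.76, SE 0.26, adjusted p = 0.000618). No WT array reached the lowest *sdg8-5* array in any of these. ADPG1, a polygalacturonase of cell separation in floral organs and siliques, read 33.8, 30.9 and 20.8 in WT and 121, 170 and 154 in *sdg8-5* (2.40, SE 0.42, adjusted p = 0.00208). GI, the clock-linked flowering gene GIGANTEA, rose from 433, 487 and 466 to 613, 751 and 756 (0.61, SE 0.16, adjusted p = 0.0375), while the flowering gene AGL24 was not called. The GI call was lost without any 1 array other than *sdg8-5* replicate 1. Among the other rises named by the rule, the folds were 2.87 for AT1G51380, 2.94 for AT1G49310, 2.99 for AT5G51440, 3.06 for PR-1-LIKE, 3.97 for AT4G16563, 4.62 for AT3G53940 and 5.25 for AT5G64710. The calls of AT1G51380, AT5G51440 and PR-1-LIKE were lost without *sdg8-5* replicate 2, and that of PR-1-LIKE without WT replicate 2. The rule also named AT1G20070, AT3G25640, AT4G04460 and AT3G58540, whose calls were lost without *sdg8-5* replicate 3. All of these but AT3G58540 lost their calls without other single arrays as well. With the 25S signal as a covariate, the calls of AT1G51380, PR-1-LIKE, AT1G20070, AT3G25640 and AT4G04460 were lost. GID1B, a gibberellin receptor gene chosen after its values were seen, was at 428 in the mean of WT and 904 in *sdg8-5* (adjusted p = 0.00136).

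Rises clustered in 1 stretch of chromosome 5. This stretch was found by scanning the calls along the gene order of the TAIR10.1 annotation, so its members were chosen after their values were seen and are given without a test. In windows of 20 consecutive measured genes, the number of rises averaged 0.257 and reached 13 in this stretch, against at most 4 in windows that do not touch it. From AT5G03880 to DME (AT5G04560), 37 genes were measured, of which 19 were called higher and none lower. Over all genes, 1.29% were called higher and 3.2% lower. All 27 with a mean of at least 100 in either genotype lay above 0. None of the 20 measured genes before the stretch and none of the 20 after it was called higher. The arrays measure RNA only, and the DNA of the stretch was not examined here.

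AT5G03880, at the edge of the stretch, read 1579, 1416 and 1551 in WT and 3630, 3572 and 3768 in *sdg8-5* (log2 difference 1.27, SE 0.11, adjusted p = 9.94e-06). SIM, the cyclin-dependent kinase inhibitor SIAMESE of endoreduplicating trichomes, read 441, 513 and 582 against 1207, 1238 and 1305 (SE of the log2 difference 0.14, adjusted p = 3.93e-05). AT5G04420 read 421, 419 and 390 against 845, 886 and 976 (1.14, SE 0.15, adjusted p = 0.000287). The replicates of these genes were tight, and the groups lay about 2-fold apart. DME, the DNA glycosylase of active demethylation, was at the other edge with 416, 388 and 345 against 653, 513 and 620 (0.63, SE 0.17, adjusted p = 0.0395). Its neighbour SIR, already given above among the sulfur genes, was not called. The 19 genes spanned log2 differences of 0.63 to 1.41 with a median of 0.93, and their medians in the other treatments were 0.92 without sucrose in darkness, 1.07 without sucrose in light and 0.98 with sucrose in light. Each of the 19 genes lay above 0 in all 4 treatments. Their median was 0.93 to 1.00 when any 1 array was left out, with 13 to 17 of the 19 still called, and 11 were called with the 25S signal as a covariate. Falls showed no stretch of that density: the highest count in a window was 6, reached around AT4G19860, where AT4G19830, AT4G19860, AT4G19865, AT4G19880, AT4G19985 and AAH were lower, with differences of -3.31 to -0.81. These were 6 of the 12 genes measured from AT4G19830 to AT4G20070, beside 3.2% lower over all genes. This place was also found by scanning the calls and is given without a test.

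**Figure D5:**
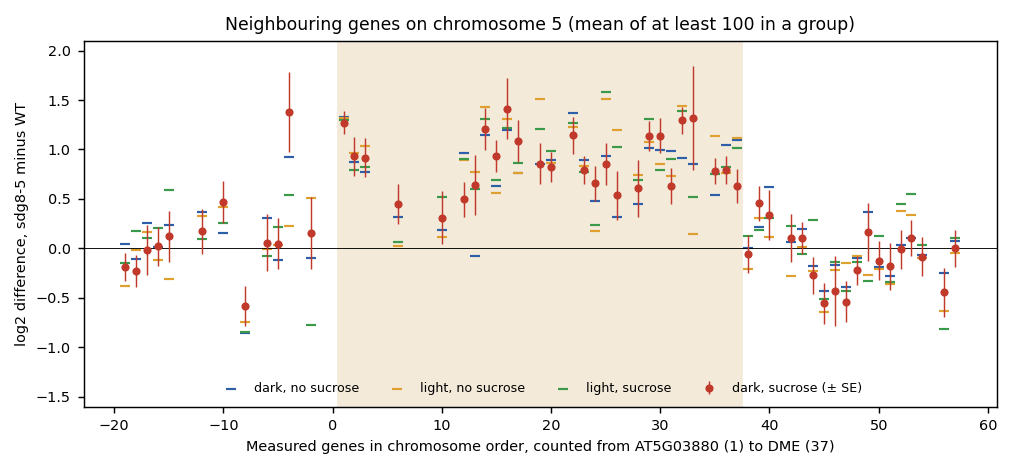
Log2 difference between *sdg8-5* and WT for measured genes in chromosome order around the stretch from AT5G03880 (position 1) to DME (position 37, shaded), for genes with a mean of at least 100 in a group; red points with SE bars are sucrose in darkness and dashes the other 3 treatments. All 27 plotted genes inside the stretch lie above 0, with a median of 0.93 among the 19 called, and genes on both sides scatter around 0.

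Most differences seen with sucrose in darkness had the same sign in the other treatments, which have their own WT and *sdg8-5* arrays. Of the 398 falls, 94.0% were below 0 without sucrose in darkness, 90.7% without sucrose in light and 91.2% with sucrose in light, beside 64.1%, 62.4% and 64.5% of same-sign differences over all genes. They were called lower there in 198, 131 and 134 genes (of all genes, 2.97%, 1.5% and 1.5% were called lower), with 94 called in all 3 and 170 in none. Of the 160 rises, 55, 30 and 33 were called higher there (of all genes, 1.21%, 0.547% and 0.676%), with 23 called in all 3 and 97 in none. NRPB6B, PDF1.2 and CYP71B5 belonged to the falls of the first kind: their log2 differences in the other 3 treatments were -3.29 to -3.20, -3.49 to -3.00 and -2.65 to -2.20. ATIM was called lower in both dark treatments, at -1.09 without sucrose in darkness (adjusted p = 0.0137) and at -0.08 and 0.05 in light. The change of the ATIM difference from light to darkness under sucrose was -1.56 and did not pass the test (adjusted p = 0.305). A gene called in this treatment and not in another is not thereby shown to differ between them: the difference itself passed in the 23 genes given above.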

How the data were processed

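RNA from whole shoots was hybridized as biotin-labelled cRNA to Affymetrix ATH1 arrays. The deposited values are MAS5 signal intensities made by the authors in R, on a linear scale with the trimmed mean of each array set to 500. Tool versions are not given in the sources used here. Of 22810 probe sets, 21552 reaching 40 on at least 1 array were kept, log2 was taken, and 8 condition means were fitted over 24 arrays with limma 3.58.1 in R 4.3.3 (16 residual degrees of freedom, Benjamini-Hochberg adjustment over all probe sets kept, FDR under 0.05, or 0.15 for differences between treatments as in the study's methods). All adjusted p-values are from these limma fits. Each gene is given by its brightest probe set among the 13513 annotated to 1 gene. 503 probe sets with several genes and 8794 with none in the annotation used were not named, and close relatives may cross-hybridize.

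Named genes were the 15 largest falls and rises with no overlap between the groups and a mean of at least 100 in the higher group, and, without those conditions, the 5 lowest p-values of each difference between treatments, up to 4 called members of each gene list or family, and NRPB6B, PDF1.2, ATIM, PGRL1B, APS3, APS4 and BCAT4. Members and lists were chosen with earlier results of these data known. Of the lists not described, carotenoid, storage metabolism, flavonoid and heat shock genes had 2 measured members each and none called. Nitrogen assimilation, clock, histone methylation and low oxygen genes had none with a probe set annotated to 1 gene in the annotation used. The array may still hold probe sets for them, and the study reported changes of the nitrogen genes ASN3 and GLN2 from its arrays. Tested on simulated data for the genotype comparison, the fit recovered 67 of 100 probe sets changed by 1 on the log2 scale and 97 of 100 changed by 2, with 6 false calls among 21552 probe sets. For the difference from the other 3 treatments, at an FDR under 0.15, it recovered 66 and 97 of 100, with 23 false calls. The changed probe sets were drawn from those with an average intensity, taken on the log2 scale, of at least 100. The simulated noise was independent between arrays. Recovery of weaker probe sets, and the effect of signals shared by groups of arrays, were thus not tested. The number of arrays limits the precision. The limma p-values rest on the spread between replicates within groups, pooled over all groups of the 24 arrays. They do not rest on the 3 samples of a group alone. Alternatives covered the filter, offset, normalization, arrays fitted, model, blocks and each replicate left out.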

Additional observations from a re-analysis of the deposited data

Results flagged for a closer look

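The genotype difference with sucrose in darkness differed from the mean of the other 3 treatments, by the limma contrast of that difference, in 23 genes. The log2 values were -2.81 for AT2G20670, -1.67 for AT3G15450, -1.04 for AT1G73480, -2.82 for AT5G25470, -1.34 for AKINBETA1, -0.76 for AT1G20880, -2.26 for AT3G27150, -0.93 for AT4G05070 and -0.91 for AT2G25220. They were -1.32 for CCL, -1.29 for CSLA03, -1.27 for AT5G19120, -2.54 for AT2G02410, -4.25 for AT3G62950, -1.18 for AT5G47390, -3.08 for DEP and -0.86 for AT3G15760. They were -1.26 for AT3G49790, -0.92 for AT1G18460, -1.15 for AT3G10760, -1.06 for AT2G28200, a C2H2 zinc finger gene, and -1.11 for AT1G56220. HAT2 alone was shifted up, by 0.88. Of the 23 genes, 14 were among the 321 lowered by sucrose in light, out of 12431 measured. Sucrose in darkness lowered 10 of the 23 in WT and 21 in *sdg8-5* at an FDR under 0.05, beside 213 and 626 of all 12431 genes. The arrays with sucrose in darkness also served to choose the 23, so the 10 and the 21 are not independent evidence.

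Against darkness without sucrose alone, the difference changed by -2.89 for AT2G20670, 1.18 for HAT2 and 4.09 for AT1G02813. Against light with sucrose alone, it changed by -1.08 for AT1G73480, -0.93 for AT1G20880, -1.71 for AT3G15450 and -1.62 for CCL.

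The 25S ribosomal RNA control signal, which no comparison of genes uses, was higher in *sdg8-5* with sucrose in darkness by 1.78 on the log2 scale. It was not particular to this treatment. The *sdg8-5* arrays read 12290 to 15340 against 2954 to 8823 in WT without sucrose in darkness. They read 1037 to 8044 against 409.7 to 508.5 without sucrose in light, and 498.1 to 1196 against 371 to 422.5 with sucrose in light. The signal was thus aligned with genotype over the series. Its part in the gene differences was not tested beyond its use as a covariate.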

How the results depend on the processing

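The counts below are genes lower, genes higher, and genes whose genotype difference differed from darkness without sucrose, from light with sucrose and from the other 3 treatments together. As reported they were 398, 160, 3, 4 and 23. Fitting only the 6 arrays compared gave 30 lower and 12 higher, fitting the 12 dark arrays gave 182 and 36 and 0 against darkness without sucrose, and the 25S signal as a covariate gave 194 and 78 and 0 against light with sucrose. The fits with fewer arrays have fewer residual degrees of freedom; for the covariate the cause was not tested. Against darkness without sucrose, the count was 0 with no filter or with centring, 8 with a minimum of 100 on at least 3 arrays, 1 with 16 added, with quantile normalization, with an ordinary model on log2 values or with the bioC block, 10 with trend and robust options and 13 with an ordinary model on untransformed values. Against light with sucrose, it was 0 with no filter or centring, 7 with the stricter minimum, 15 with trend and robust options, 2 and 23 with the ordinary models on log2 and untransformed values, and 1 with the replicate block. Against the other 3 treatments, it was 39 with the stricter minimum, 11 with centring, 45 with trend and robust options and 12 with the ordinary model on untransformed values. The causes were not tested. Leaving out single arrays or replicate sets gave 40 to 404 lower, 4 to 190 higher, 0 to 25, 0 to 29 and 1 to 78. Same-numbered arrays among the 6 compared correlated at 0.048, -0.083 and 0.016 in their deviations from the group means, so no pairing by replicate number was seen in them. Over the series, replicate number was not independent of the bioC groups. Every replicate 1 array was in the lower group and every replicate 3 array in the higher group. The replicate block gave 447 lower and 207 higher, which include 382 of the 398 and 152 of the 160, and 18 against the other 3 treatments. Over all alternatives, single-gene results kept direction and call in 1318 cases, kept direction but lost the call in 376 and changed sign in 6. All 6 were AT1G02813 (-0.002 as reported, not called), at 0.167 with quantile normalization, 0.051 with centring, 0.099 with the bioC block, and 0.19, 0.078 and 0.269 without WT replicate 1, *sdg8-5* replicate 1 or both, against -0.24 without replicate 3 of both. Intensities near the floor limit the folds of weak genes.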
